A study of Mus musculus with 4 samples.

Results

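Small nucleolar RNAs, small Cajal body RNAs, their host genes and the long nuclear RNAs Malat1 and Neat1 were examined in mesothelial cells of the mouse peritoneum. The rows were chosen by gene symbol: all rows named Snora, Snord, Scarna or Snhg with a number, together with Gas5, Malat1 and Neat1. This gave 166 of the 48425 genes in the table. Of these, 147 were small RNA rows (98 Snord, 40 Snora and 9 Scarna), 17 were host genes (16 Snhg rows and Gas5) and 2 were the long nuclear RNAs. RNA was sequenced from 4 wild-type C57BL/6 mice aged 10 weeks, 1 library per animal, and the series holds no second group. Cells were detached with trypsin and EDTA, sorted as CD45-negative, podoplanin-positive and Gpm6a-positive, and their total RNA was depleted of ribosomal RNA. Library totals were 4090224 to 4569578 estimated counts.

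Box C/D small nucleolar RNAs (Snord) guide methylation of ribosomal RNA riboses, box H/ACA RNAs (Snora) guide the conversion of uridine to pseudouridine, and small Cajal body RNAs (Scarna) do the same for spliceosomal RNAs. In mammals most of them are cut out of introns, and several hosts, such as Gas5 and many Snhg genes, make spliced RNAs that code for no known protein and are quickly degraded. Malat1 gathers in nuclear speckles, and Neat1 is the scaffold of paraspeckles.

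Most host genes and both long RNAs were detected in every library, and the small RNA rows were almost empty. Levels are in counts-per-million (CPM), each estimated count divided by its column sum and scaled to 1000000, and they are not divided by length unless stated. The quasi-likelihood test of edgeR asked whether each level exceeded 1 CPM, with p-values adjusted over all genes. By this test 15 of 17 host genes and 2 of 2 long RNAs lay above 1 CPM, but only 2 of 147 small RNA rows did. Over all genes tested, 24.7% lay above 1 CPM. Among 6592 other long non-coding rows the share was 5.29%, among 1380 further rows annotated as snoRNA or scaRNA it was 0% (0 rows, also 0 at an unadjusted p under 0.05), and among 21490 other protein-coding rows it was 50.9%. Together the 166 rows took 2682 ± 96.8 CPM (SD, n = 4), of which Malat1 alone held 69.0%. The summed level was 29.9 ± 4.74 CPM for the small RNA rows, 771 ± 56.2 CPM for the host genes and 1881 ± 69.0 CPM for the long RNAs. Gas5 held 56.2% of the host level, and the median host gene had 12.6 CPM.

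**Figure D1:**
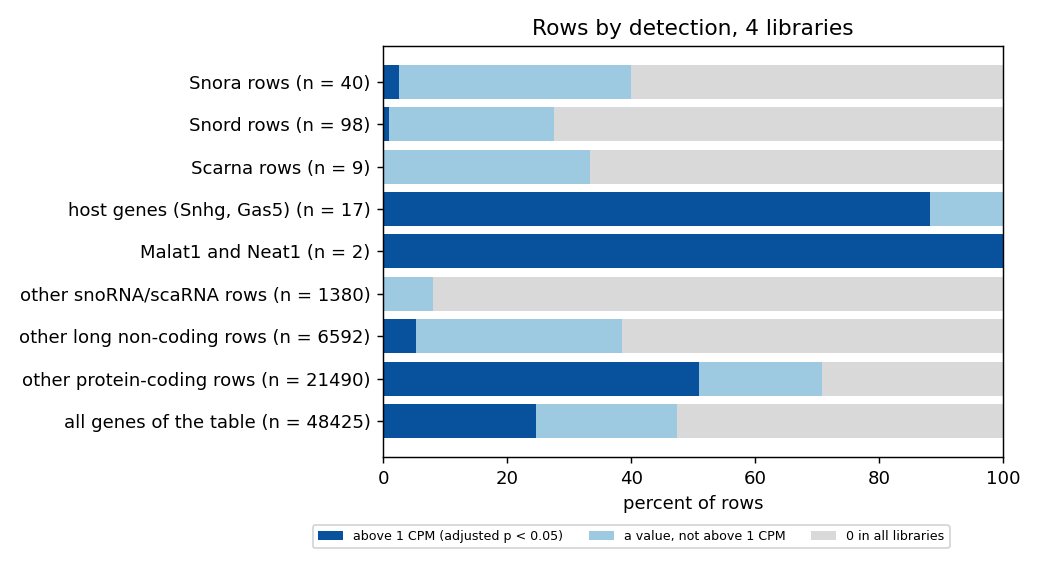
Percent of rows (horizontal axis) in each class that passed the edgeR test of 1 CPM, that had a value without passing, or that were at 0 in all 4 libraries. Of the host genes 15 of 17 passed, against 2 of 147 small RNA rows.

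The sorted cells carried mesothelial RNA. All 13 mesothelial markers lay above 1 CPM, with a summed level of 16857 to 18843 CPM. All 5 fibroblast markers also did, with 13999 to 20911 CPM, most of it from Dcn. Of 9 leukocyte markers 1 passed (Csf1r), and the CD45 gene Ptprc did not. Among endothelial markers only Kdr of 4 passed and Cdh5 was at 0, and of 4 neuronal markers none passed by edgeR (Snap25 and Syt1 were at 0). Of 4 erythroid markers 2 passed, with summed levels of 0.315 to 46.0 CPM. Which cells made the RNA of the fibroblast markers, and how much those cells contributed to the levels below, was not tested.

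Sequences of several small RNA rows are given from GENCODE M21 transcripts on GRCm38, read 5′ to 3′ on the strand of the gene. In the box C/D RNAs the capitals mark box C (TGATGA, searched before the midpoint of the RNA) and box D (CTGA, in the last 20 bases). In the box H/ACA RNAs and in Scarna13 they mark box H (ANANNA, in the middle) and the ACA near the end. Only the RNA strand was searched, and the motifs do not overlap. Snora31, Snora78, Snord104, Snord118 and Scarna13 are shown because each had 10 or more counts over the 4 libraries, and Snord123 and Snord22 because their hosts are discussed below.
Snord104 (chr11:106500993-106501062, plus strand): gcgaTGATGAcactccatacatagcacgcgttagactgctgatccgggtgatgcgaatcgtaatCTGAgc
Snord118 (chr11:69073427-69073561, plus strand): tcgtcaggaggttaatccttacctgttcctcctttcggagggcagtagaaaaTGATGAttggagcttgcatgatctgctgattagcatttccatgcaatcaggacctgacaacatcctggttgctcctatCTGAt
Snora31 (chr14:75847905-75848034, plus strand): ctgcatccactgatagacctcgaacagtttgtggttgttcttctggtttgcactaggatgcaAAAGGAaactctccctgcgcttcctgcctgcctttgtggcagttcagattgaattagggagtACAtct
Snora78 (chr17:24719676-24719803, minus strand): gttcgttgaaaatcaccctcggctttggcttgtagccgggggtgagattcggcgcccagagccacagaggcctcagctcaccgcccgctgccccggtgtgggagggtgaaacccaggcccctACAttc
Scarna13 (chr12:105031075-105031349, minus strand): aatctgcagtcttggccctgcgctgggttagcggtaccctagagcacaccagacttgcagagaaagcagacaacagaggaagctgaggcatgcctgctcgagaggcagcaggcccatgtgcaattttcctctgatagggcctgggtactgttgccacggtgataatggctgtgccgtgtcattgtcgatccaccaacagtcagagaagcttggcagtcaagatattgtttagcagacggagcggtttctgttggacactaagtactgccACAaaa
Snord123 (chr15:32241853-32241923, minus strand): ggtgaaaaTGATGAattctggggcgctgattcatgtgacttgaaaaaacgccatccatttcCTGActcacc
Snord22 (chr19:8725866-8725991, plus strand): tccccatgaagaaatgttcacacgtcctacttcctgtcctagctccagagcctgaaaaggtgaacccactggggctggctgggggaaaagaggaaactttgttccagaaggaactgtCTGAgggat
Box C was found in 73 of 98 Snord sequences and in 0 of 40 Snora sequences, and box D in 96 and 4. Box H was found in 38 of 40 Snora sequences and in 57 of 98 Snord sequences, and the terminal ACA in 38 and 7. A box C was not found in Snord22, nor a box H in Snora78 or Scarna13, in the windows searched.

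Snord13, a box C/D RNA with its own gene and no annotated host, was the highest small RNA row. Animals 1 to 4 gave 21.0, 9.81, 12.0 and 14.3 CPM, a total of 252 counts. The level varied 2.14-fold between the lowest and the highest animal (14.3 ± 4.84 CPM, adjusted p = 3.93e-14 by edgeR). All 4 animals lay far above 1 CPM. The row shares no stretch of 31 bases with any other annotated gene.

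Snora31, a box H/ACA RNA inside an intron of Tpt1 (the gene of translationally controlled tumour protein), was the other small row above 1 CPM. It had 4.80, 4.27, 9.17 and 4.95 CPM in animals 1 to 4, with animal 3 above the others (5.80 ± 2.27 CPM, adjusted p = 1.91e-07 by edgeR). Tpt1 itself had 598, 571, 634 and 582 CPM in the same order. Snord13 and Snora31 together held 67.3% of the counts of all small RNA rows.

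Below these 2 the levels were close to the reach of the libraries. A single count is worth 0.219 to 0.244 CPM, and 3 counts over the 4 libraries together correspond to 0.171 CPM, the level that a gene at 0 can still have. This limit covers counting error only, and the use of molecular identifiers is not stated in the labels. Snord104, a box C/D RNA, had 1.93, 2.20, 2.18 and 0.235 CPM in animals 1 to 4 and did not pass (adjusted p = 0.487 by edgeR). Animal 4 was the low one. Snord118, a box C/D RNA that in frogs is needed for processing of the large ribosomal subunit's RNA, had 1.54, 1.57, 0 and 1.19 CPM. Scarna13, the highest of the Cajal body RNAs, had 2.20, 0, 0.223 and 0.488 CPM, with most of its 13.1 counts in animal 1. Scarna2 had 0.429, 0.230, 0.872 and 0 CPM and Scarna17 had 0, 0.217, 0.214 and 0 CPM, and the other 6 Scarna rows were at 0. Snora57, a box H/ACA RNA with no annotated host, had 0, 1.34, 0.671 and 0.118 CPM, highest in animal 2. None of the 9 Scarna rows lay above 1 CPM by edgeR (0 at an unadjusted p under 0.05, and 0 by DESeq2 and by limma with voom weights).

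Of the 147 small RNA rows 101 were at 0 in every library and 46 had a value in at least 1 library, 31.3% against 47.4% of all genes. With counts rounded to whole numbers, 6 rows had at least 1 count in all 4 libraries: Snord13, Snora31, Snora78, Snord104, Snord123 and Snord65. That is 4.08% of the rows, against 28.2% of all genes. Without rounding, Snord13 and Snora31 were the only 2 small rows with 1 count or more in each library, against 27.2% of all genes. Of the 46 rows, 40 had fewer than 10 counts over the 4 libraries. A value was present in 19, 21, 26 and 22 small rows in animals 1 to 4. By class, 16 of 40 Snora, 27 of 98 Snord and 3 of 9 Scarna rows had a value. In the rest of the table's snoRNA and scaRNA rows 112 of 1380 (8.12%) had one. Those other rows hold the U3 small nucleolar RNA genes. Their 4 copies Rnu3b1 to Rnu3b4 carried the same value as each other in each library, 1.31 CPM on average for each copy, and Rnu3a had 1.25 CPM. The level of U3 over all its rows is thus higher than that of any single row. If reads were divided among the copies was not tested.

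**Figure D2:**
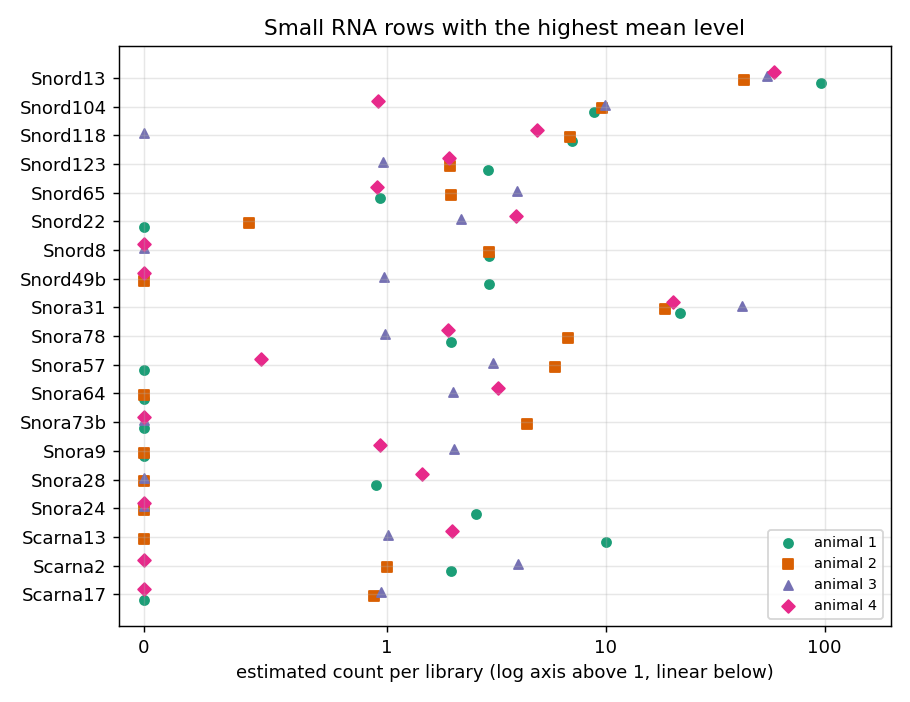
Estimated counts in each of the 4 animals (horizontal axis, log above 1 and linear below) for the small RNA rows with the highest mean level, by class. Snord13 and Snora31 stand apart at 18.7 to 96.0 counts per library, and other rows lie at about 10 or fewer.

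The annotation around the small RNAs was set beside their detection. Of the 8 small RNA rows with no annotated host on their strand 6 had a value, in sum 318 counts. Snora17 and Snora43 belong to these 8 and had no value. Their textbook host Snhg7 has no entry in GENCODE M21, so it could not be counted as a host. Of 75 rows in an intron with no exon overlap 20 had a value, in sum 177 counts. Of 64 rows that overlapped an exon of a longer transcript 20 had a value, in sum 31.7 counts, and none of these lay above 1 CPM by edgeR. Rows without a shared 31-base stretch had a value in 21 of 49 cases (447 counts), those with some shared in 5 of 24 (45.7 counts), and those with all shared in 20 of 74 (35.1 counts). Rows under 100 nt had a value in 21 of 88 cases, rows of 100 to under 130 nt in 8 of 15 and rows of 130 nt and over in 17 of 44. The 17 rows of the Snord116l family, all at 0, lie in 1 host, Snhg14. They belong to the 75 intronic rows and to the 88 rows under 100 nt, and 14 of them to the 74 rows with all stretches shared. These shares therefore do not count separate loci. Single rows carried most of these sums: Snord13 held 252 of the 318 counts of rows with no annotated host, and Snora31 held 103 of the 177 counts of intronic rows. Without these 2 rows the sums were 66.3 counts for rows with no annotated host and 74.7 counts for intronic rows. The order of these sums thus turned round. They cover very unequal numbers of rows, 8 and 75 before the 2 were left out, and so do not give an order per row. Rows with no shared stretch then held 92.0 counts. These are counts of rows and reads, not tests. The shared stretches were counted in GENCODE M21, and the sources used here do not name the transcripts in the authors' index. The part that length or sharing played in the low values was not tested.

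**Figure D3:**
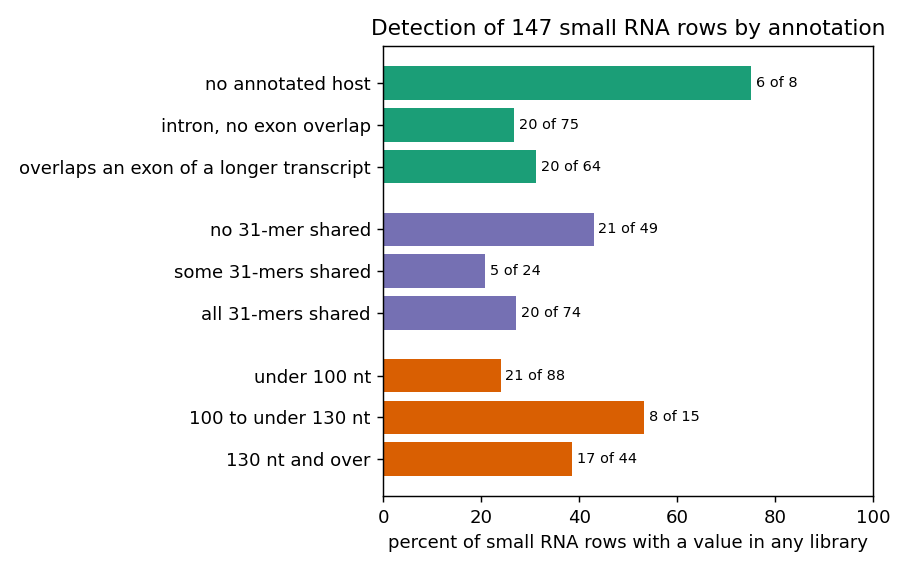
Percent of the 147 small RNA rows with a value in any of the 4 libraries (horizontal axis), split by position, by 31-base stretches shared with other genes and by transcript length; the numbers beside the bars give rows with a value of all rows. Rows with no annotated host stand highest at 6 of 8. The 17 Snord116l rows, all at 0, are among the intronic rows and among those under 100 nt.

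Gas5 was the most abundant host gene. It lies on chromosome 1 at 161034422 to 161038539 and holds box C/D RNAs in its introns. It had 421, 446, 466 and 401 CPM in animals 1 to 4 (433 ± 28.2 CPM, adjusted p = 1.76e-33 by edgeR), 56.2% of the level of all host genes. The spread between animals was narrow, 1.16-fold. The 3 small RNA rows inside it that were chosen by symbol, Snord47, Snord78 and Snord80, together held 0.0888 counts. All their 31-base stretches recur in transcripts of Gas5 itself, so reads there cannot be told apart from those of the host.

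Snhg18 followed with 120.5, 137, 120.1 and 105 CPM in animals 1 to 4, a 1.31-fold range. It lies on chromosome 15 at 32240565 to 32244662 as a single annotated transcript, which shares no 31-base stretch with another gene. Its guest Snord123 sits in the intron with no exon overlap and had 2.91, 1.94, 0.986 and 1.92 counts, beside 550, 598, 547 and 428 counts of the host. Snhg5 had 51.9, 47.2, 62.8 and 50.6 CPM, and its guests Snord50a and Snord50b held 0.898 counts in all.

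Snhg14 differed more between animals. It is a very long imprinted transcript that in neurons runs through the Snord116 cluster and antisense to Ube3a, and it lies on chromosome 7 at 59307924 to 59975759. It had 56.1, 33.3, 59.6 and 32.0 CPM in animals 1 to 4, high in animals 1 and 3 and low in animals 2 and 4. All 17 rows of the Snord116l family inside it were at 0 in every library, and in 14 of them every 31-base stretch recurs in other genes. Among those genes are Gm22128 and Gm22285, which overlap Snhg14 on its strand and whose values are not given here. The 17 rows thus do not give the level of the whole cluster. Of the 31-base stretches of Snhg14, 7.81% also occur in Ube3a, which lies on the other strand and had 36.3, 44.8, 26.1 and 28.6 CPM. The sources used here do not say if strand was kept, so reads of the 2 genes cannot be told apart where they overlap. Snrpn, which shares the locus and was looked up after these values were seen, had 9.34, 5.06, 4.64 and 5.88 CPM. The neuronal markers summed to 0, 2.77, 3.09 and 2.25 CPM in animals 1 to 4, nearly all of it Tubb3.

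Snhg8, Snhg1 and Snhg12 formed the next tier. Snhg8 had 26.9, 20.9, 30.9 and 25.7 CPM in animals 1 to 4, Snhg1 had 19.8, 20.9, 34.1 and 24.0 CPM, and Snhg12 had 16.2, 13.2, 19.8 and 20.7 CPM. Snhg1 was highest in animal 3 and holds Snord22, whose 31-base stretches all lie in Snhg1 transcripts too. Snord22 had 0, 0.433, 2.18 and 3.87 counts. Snhg6 and Snhg17 averaged 12.8 ± 1.86 and 12.6 ± 4.17 CPM. Snhg20, Snhg15, Snhg4, Snhg9, Snhg3 and Snhg11 lay between 3.04 and 5.58 CPM on average and passed as well. Snhg3 and Snhg11 no longer passed against a level of 2 CPM (adjusted p = 0.0529 and 0.428 by edgeR). Snhg3 also shares 70.9% of its stretches with other genes, 60.7% with Gm17300 on the opposite strand. Snhg7 and Snhg7os, annotated as an antisense gene, had 1.99 and 1.41 counts over the 4 libraries and did not pass.

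**Figure D4:**
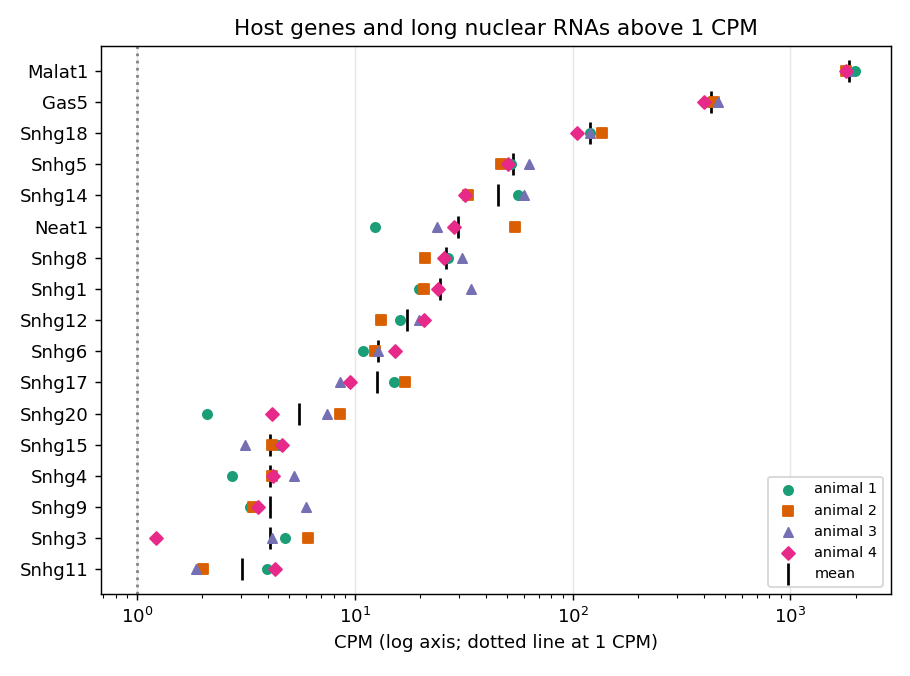
CPM of each animal (horizontal log axis, dotted line at 1 CPM) for the 17 host genes and long RNAs that lay above 1 CPM, with the mean as a bar. Malat1, Gas5 and Snhg18 are nearly the same in all 4 animals, whereas Neat1, Snhg20 and Snhg3 range over more than 4-fold.

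Among Gas5 and the Snhg genes with coordinates, Snhg9 had the most guest counts, 11.6 for Snora78 against 72.0 for the host. Gas5 had the least of those above 0. Guests were counted only among the small RNA rows chosen by symbol. Other annotated genes that overlap these hosts on their strand were not counted, such as Gm22357 in Gas5 and Gm24453 in Snhg1. This order therefore covers only part of what lies inside each host. Snhg4 and Snhg7, which have no entry in GENCODE M21, were left out. Snora78 shares no 31-base stretch with another gene, whereas all stretches of the Gas5 guests recur in Gas5. The part that sharing played in this order was not tested. Snora78 had 1.96, 6.74, 0.992 and 1.90 counts in animals 1 to 4, beside 15.1, 14.9, 27.3 and 14.7 counts of Snhg9. Snhg9 lies opposite Rps2 and overlaps one of its exons on the other strand. Per length the first 3 genes kept their order whether the median or the longest annotated transcript was used. With the longest transcript Malat1 had 265 ± 11.7, Gas5 170 ± 11.0 and Snhg18 81.1 ± 8.84 CPM per kb, and their ranges over animals did not overlap. With the median transcript length Malat1 had 3054 and Gas5 689 CPM per kb. Below these the order depended on which length was used, and most neighbours overlapped. Snhg14 stood at 58.7 CPM per kb at rank 5 by median length and at 6.59 CPM per kb at rank 11 by the longest. Neat1 stood at 14.8 CPM per kb at rank 11 by median length and at 1.43 CPM per kb at rank 15 by the longest. Small RNA rows were not placed in this order, because the sources used here give no fragment length.

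**Figure D5:**
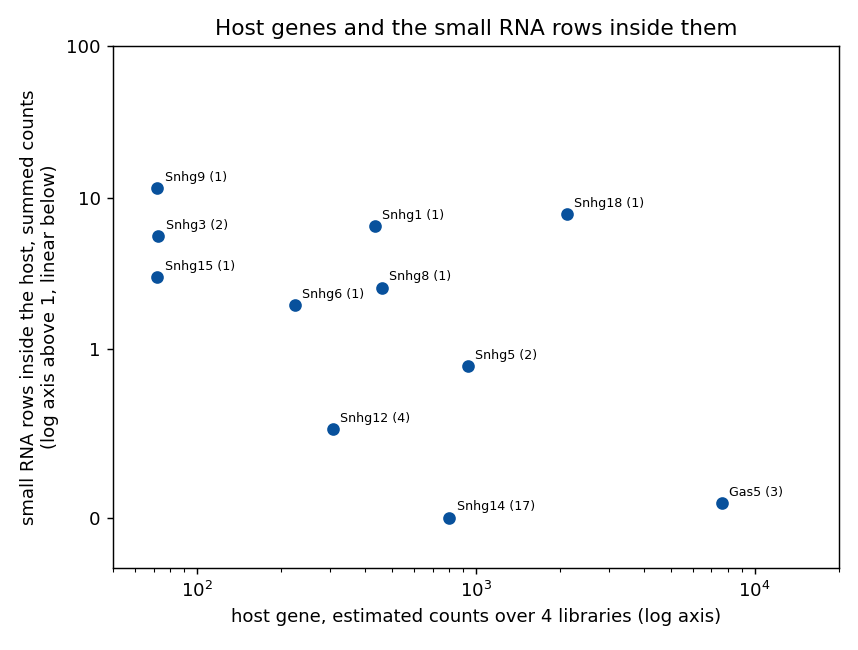
Summed counts of the small RNA rows inside a host (vertical axis, log above 1 and linear below) against the counts of the host over 4 libraries (horizontal log axis); the number in brackets gives the small RNA rows. Only small RNA rows chosen by symbol were counted, so other annotated genes inside a host are left out. Gas5 has 7634 counts and its 3 rows 0.0888, Snhg9 has 72.0 and its row 11.6. All 31-base stretches of the 3 rows in Gas5 recur in Gas5 transcripts, whereas the row in Snhg9 shares no such stretch with another gene.

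Malat1 was the highest of all 166 rows and hardly varied. It lies on chromosome 19 at 5795690 to 5802672 and had 1969, 1795, 1840 and 1799 CPM in animals 1 to 4, a 1.10-fold range. Neat1, its neighbour on the same strand at 5824708 to 5845478, had 12.4, 54.3, 23.9 and 28.5 CPM. Animal 2 was high and animal 1 low, a 4.38-fold range. The biological coefficient of variation fitted by edgeR was 41.9% for Neat1, against 30.5% for genes of its level, and 18.9% for Malat1, against 23.3%. The summed fibroblast markers were 13999, 20911, 18131 and 14046 CPM in animals 1 to 4 and were likewise highest in animal 2. So were the summed mesothelial markers, at 17297, 18843, 16857 and 17328 CPM, and the summed endothelial and erythroid markers. Leukocyte markers were highest in animal 1 and neuronal markers in animal 3. The part of any of these cell types in the level of Neat1 was not tested. Over the 17 host and long RNAs above 1 CPM, the median coefficient was 32.7%, beside 32.3% over all genes above 1 CPM. These 2 medians are not matched by level. Set against the trend for genes of like level, 15 of the 17 lay under it, as did 71.1% of all genes above 1 CPM.

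RNA of most genes for the proteins that bind and process these RNAs was detected. The lists here and in the next paragraph are chosen ones. Beside their counts, 24.7% of all genes and 50.9% of the other protein-coding rows lay above 1 CPM. All 13 genes of box C/D particle core and assembly lay above 1 CPM by edgeR, from Nop56 at 127 ± 31.6 CPM and Snu13 at 106 ± 11.2 CPM to Nufip1 at 12.2 ± 1.70 CPM. The methyltransferase Fbl averaged 18.4 ± 2.75 CPM. Of 9 genes for box H/ACA particles 8 passed, led by Nop10 at 108 ± 7.63 CPM and Nhp2 at 44.2 ± 11.8 CPM, with the pseudouridine synthase Dkc1 at 40.6 ± 6.57 CPM. The exception was Terc, the telomerase RNA with an H/ACA domain, which was at 0 in all 4 libraries. Of 15 Cajal body and nucleolar genes 14 passed, led by Npm1 at 819 ± 139 CPM and Ncl at 271 ± 50.5 CPM. Gemin4 did not (2.47 ± 2.22 CPM, adjusted p = 0.0882 by edgeR), and Coil, which encodes the Cajal body protein coilin, had 7.55 ± 4.02 CPM.

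All 16 paraspeckle and speckle genes passed, led by Hnrnpk at 1005 ± 177 CPM and Srsf2 at 336 ± 86.9 CPM. The paraspeckle protein genes Nono and Sfpq had 182 ± 28.0 and 51.3 ± 5.82 CPM, and Pspc1 was lowest at 6.88 ± 4.85 CPM. All 37 listed protein-coding genes with intronic small RNAs passed, beside 50.9% of the other protein-coding rows of the table. They ran from Hspa8 at 2629 ± 556 CPM and Rpl3 at 1178 ± 70.1 CPM to Ppan at 14.7 ± 6.00 CPM. The list is a chosen one, and other protein-coding hosts of small RNA rows, such as Snx5, Zbed3 and Htr2c, are not in it. All 12 genes for RNA decay passed, among them Exosc10 at 59.6 ± 26.6 CPM and Dis3, the lowest, at 7.09 ± 2.37 CPM. Of 13 other small non-coding RNA genes with a row, 1 passed, Rn7sk, the RNA that holds back a transcription elongation kinase, at 5.93, 3.29, 0 and 3.67 CPM in animals 1 to 4. It no longer passed without animal 1 or without animal 4. Rmrp and Terc were at 0, and Vaultrc5 averaged 1.77 ± 0.619 CPM.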

How the data were processed

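RNA of sorted mesothelial cells from 4 animals was measured by total RNA sequencing after depletion of ribosomal RNA. The authors deposited estimated counts per gene symbol, 1 column per animal. The unit was read from the values. Per the submitters' processing notes the build was GRCm38.p5 and the tools included limma 3.38.3, kallisto 0.43.1 and edgeR 3.24.3, with no role stated. How transcripts were summed to genes, the library kit and the read length are not given in the sources used here. Library totals were 4090224 to 4569578 estimated counts, and precision for rare rows is limited by counting.

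CPM were computed over the column sum. Estimated counts were rounded for the tests. Each level was tested against 1 CPM with edgeR 4.0.16 (R 4.3.3), by a quasi-likelihood F statistic from fitted and null deviances, one-sided, adjusted by Benjamini-Hochberg over 48425 genes at 0.05. The same statistic was checked against the packaged function on simulated data. In simulated counts over 48425 genes, 1.5% of 200 genes at 1 CPM, 63% at 2 CPM and 99% at 4 CPM were called above 1 CPM. Every simulated gene was given the common biological coefficient of variation, 42.3%. The fitted trend was higher for rows of low level, 94.2% for Rnu3b1 and 54.7% for Snora31. The simulated shares therefore do not give the power for such rows.

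Alternatives were TMM and DESeq2 size factors, DESeq2 1.42.0, limma 3.58.1 with voom weights, a minimum of 10 counts, thresholds of 0.5 and 2 CPM, and leaving out each animal. Coordinates, hosts, lengths and shared 31-base stretches come from GENCODE M21 (GRCm38), in which 164 of 166 rows were found. Named rows were to be Malat1, Neat1, Gas5, the Snhg rows that passed, the highest 8 Snora, 8 Snord and 5 Scarna rows, numbered clusters by count, hosts with a guest row at a value, and the 2 highest and the lowest gene of each list; others named in the text were chosen after their values were seen. The members and lists were chosen with earlier results of these data known. The series' design text gives 4 animals for the 4 libraries, which were treated as 1 group. One gene of the RNA decay list and 1 small RNA sequence are not reported here.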

Additional observations from a re-analysis of the deposited data

Results flagged for a closer look

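Of 44 levels checked for a single animal far from the other 3, 5 were past Dixon's limit, and chance alone flags about 1 in 20 groups of continuous values. The gap to the nearest animal divided by the whole range was 0.895 for Snhg9, with animal 3 high at 5.99 CPM and the others at 3.31 to 3.59 CPM. It was 0.86 for Snora31, with animal 3 high at 9.17 CPM. It was 0.859 for Snord104, with animal 4 low at 0.235 CPM. It was 1 for Snora73b and 1 for Snora24, each with a value in a single animal (4.39 counts in animal 2 and 2.55 counts in animal 1). A row with a value in a single library always has a ratio of 1, so these 2 cannot be set against that rate.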

How the results depend on the processing

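The 19 members above 1 CPM were the same 19 with TMM sizes, DESeq2 size factors, a minimum of 10 counts, DESeq2's test, limma with voom weights and without each animal in turn. Against 2 CPM 17 remained, without Snhg3 and Snhg11. Against 0.5 CPM the Snord rows that passed numbered 2 instead of 1, Snord104 being the one added. At a stricter demand of 5 counts in each library, the rows detected in all libraries fell to 1 Snora, 1 Snord and 2 small RNA rows in all. The same 1 Snora, 1 Snord and 2 small RNA rows were left with unrounded counts of at least 1, a setting chosen after seeing the data. Leaving out an animal changed the Scarna rows detected in every remaining library to between 0 and 1, and the other small RNA genes above 1 CPM to between 0 and 1 (0 without animal 1 or 4). Against 2 CPM those other small RNA genes numbered 0. The summed Scarna level of 1.22 CPM was 0.748 CPM without animal 1. The other recomputations were 179 of class counts and sums and 228 of mean levels of single rows. In these, values moved by less than the spread between animals and counts by at most 1.5 times. Leaving out 1 of 4 animals can never move a mean level by that spread, so for those settings this outcome was fixed in advance. Snora24, for example, went from 0.140 to 0 CPM without animal 1. No paired analysis was possible because the series has 1 group. Few counts limit the precision of the small RNA rows, of which 40 of 46 with a value had fewer than 10 counts. The part of depth in their low values was not tested.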
